A study of Mus musculus with 9 samples.

Results

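The proteasome subunit genes were followed from spermatogonia into spermatocytes, in the presence and in the absence of retinoic acid (RA) synthesis. They were chosen by symbol, as the Psma, Psmb, Psmc, Psmd and Psme genes without the immunoproteasome subunits Psmb8, Psmb9 and Psmb10, which gave 40 of the 24505 genes in the count table. Messenger RNA was sequenced from 9 libraries of EGFP+ germ cells, in groups of 3. In/B spermatogonia were taken at postnatal day (P) 17, and preleptotene (PL) spermatocytes were taken at P19 from RA-sufficient and from RA-deficient mice. All cells came from Uchl1-eGfp mice, of C57BL/6 origin and outcrossed with CD-1, in which the Uchl1 promoter makes EGFP bright in spermatogonia and dim in PL spermatocytes. All mice had taken WIN, a drug that blocks RA synthesis, by mouth from P1 to about P11 (100 µg per g of body weight). On P11 they received RA once under the skin (10 µl, 10 µg per µl). For RA-deficient PL the drug was then continued, and for the other groups it was stopped. Each preparation pooled several pups of a litter, and the 3 libraries of a group carry numbers only, so that p-values measure the spread between these libraries.

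The 26S proteasome degrades proteins tagged with ubiquitin and is made of a barrel-shaped 20S core and a 19S cap. In the core, outer rings of alpha subunits gate the entry to inner rings of beta subunits, of which Psmb5, Psmb6 and Psmb7 carry the chymotrypsin-like, caspase-like and trypsin-like sites. The base of the cap holds a ring of ATPases (Psmc1 to Psmc6) that unfolds substrates, and the lid removes their ubiquitin through Psmd14. Other activators can replace the cap, and in male germ cells a core with the alpha subunit Psma8 in place of Psma7 and the activator Psme4 (PA200) are known from the spermatoproteasome, which is needed for meiosis and for the removal of acetylated histones.

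Total counts per library were 16872425 to 26684393 in In/B, 12612959 to 21833333 in RA-sufficient PL and 25048240 to 27042274 in RA-deficient PL. Values are CPM, counts scaled to a common library size with TMM factors over all 9 libraries. Fold changes were fitted with TMM factors of the 2 groups compared, so that small ones can differ in sign from the CPM. Summed markers of meiotic entry ran from 320 to 671 CPM in In/B, 1930 to 2530 in RA-sufficient PL and 2370 to 2620 in RA-deficient PL. Of these 7 genes 5 were called higher in each PL group than in In/B. Rec8 averaged 70.7, 35.8 and 24.9 CPM in the same order. Stra8 measured 54.4, 165 and 150 CPM in In/B, 444, 126 and 121 in RA-sufficient PL and 377, 365 and 81.5 in RA-deficient PL. It did not pass in RA-sufficient PL against In/B (edgeR adjusted p = 0.155). The 3 groups also differed in markers of other cells. The 8 Sertoli cell markers in the table, all of them higher in RA-sufficient PL than in In/B and lower in RA-deficient than in RA-sufficient PL, summed to 66.4 to 344 CPM in In/B, 2810 to 3640 in RA-sufficient PL and 286 to 503 in RA-deficient PL. Peritubular and stromal markers summed to 99.2 to 146, 893 to 1230 and 143 to 174 CPM in the same order, and spermatogonial markers to 4620 to 6000, 1550 to 1980 and 3220 to 5430. Most of the stromal sum in RA-sufficient PL was a single gene, Sparc (1170, 838 and 855 CPM). Col1a1 went the other way, with 5.96, 14.7 and 14.4 CPM in RA-sufficient PL and 68.5, 68 and 56.7 in RA-deficient PL. Spermatid markers summed to between 2.52 and 47.6 CPM over the 9 libraries, Leydig cell markers to between 9.56 and 38.6, and macrophage and blood markers to between 3.8 and 13.2, with the hemoglobin genes at 0. Pachytene spermatocyte markers were highest in RA-sufficient replicate 1 (1780 CPM) and RA-deficient replicate 3 (1180 CPM), against 162 to 911 CPM in the other libraries. RA-deficient replicate 3 stood apart from its group. Kit, a receptor of differentiating spermatogonia, measured 20.3 CPM in it, against 561 and 521 in replicates 1 and 2. In In/B Kit was at 404, 327 and 331 CPM and in RA-sufficient PL at 41, 32.8 and 20.2. Replicate 3 was thus within the Kit range of RA-sufficient PL, and replicates 1 and 2 lay above all In/B libraries. Summed spermatogonial markers were 3220 CPM in replicate 3, against 5370 and 5430 in replicates 1 and 2. Which RA-deficient libraries are nearer to PL spermatocytes was not tested. The calls without replicate 3 are given with each comparison that holds it. The part of these markers and of this library's other differences in the results below was not tested.

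The proteasome genes as a group took a smaller share of the counts in both PL groups than in the In/B group. In In/B the 40 genes held 0.7114, 0.6673 and 0.6452% of all counts, in RA-sufficient PL 0.4496, 0.4032 and 0.4397%, and in RA-deficient PL 0.4068, 0.4019 and 0.3867%. Their summed level was 6710, 6730 and 6270 CPM in In/B, 4170, 3860 and 4230 in RA-sufficient PL and 4370, 4310 and 4230 in RA-deficient PL. Every PL library lay below every In/B library on both scales, and the summed levels of the PL groups met at 4230 CPM. In these bulk libraries fewer cells of a type and less RNA per cell cannot be told apart.

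Of the 40 genes 39 had enough counts to be tested in each comparison. Psmb11, the beta subunit of the thymus, had 2 to 7 counts in the In/B and RA-sufficient PL libraries and 0, 0 and 15 counts in RA-deficient PL, and was not tested. Between RA-sufficient PL and In/B, 25 members fell and 2 rose with an adjusted p below 0.05 from edgeR's quasi-likelihood test, and 12 did not pass. Over all 15001 genes tested 31.2% fell and 33.8% rose, so that falls were more frequent and rises less frequent among the members than among all genes. With a change of more than 2-fold as well, 14 members fell (19.3% of all genes) and 0 rose (26.1% of all genes). The median log2 fold change was -0.74 over the members, with 33 of 39 below 0, and 0.04 over all genes tested. All 3 RA-sufficient PL libraries lay below all In/B libraries for 28 members (35.9% of all genes) and above them for 2 (35.6% of all genes).

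Between RA-deficient PL and In/B, 22 members fell and 2 rose by the same test, and 15 did not pass. Of all 14877 genes tested 18.3% fell and 18.4% rose. With a change of more than 2-fold 10 members fell (11.8% of all genes) and 0 rose (11.4%). The median was -0.44 over the members and 0.004 over all genes. The libraries of RA-deficient PL lay below those of In/B for 31 members (33.6% of all genes) and above them for 2 (21% of all genes). These positions rest on CPM, whose scaling over all 9 libraries is not that of the fold changes. Psme4, for example, averaged 210 CPM in In/B and 207 in RA-deficient PL, with a log2 fold change of 0.15. When libraries were scaled by their totals alone the median of all genes moved by -0.32, and 28 members were called lower and 0 higher. Without RA-deficient replicate 3 the counts were 23 lower and 2 higher, with each of the 24 calls kept and Psmd8, of the lid, lower as well. The In/B libraries serve as the control in both comparisons, and their values are therefore set side by side only.

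**Figure D1:**
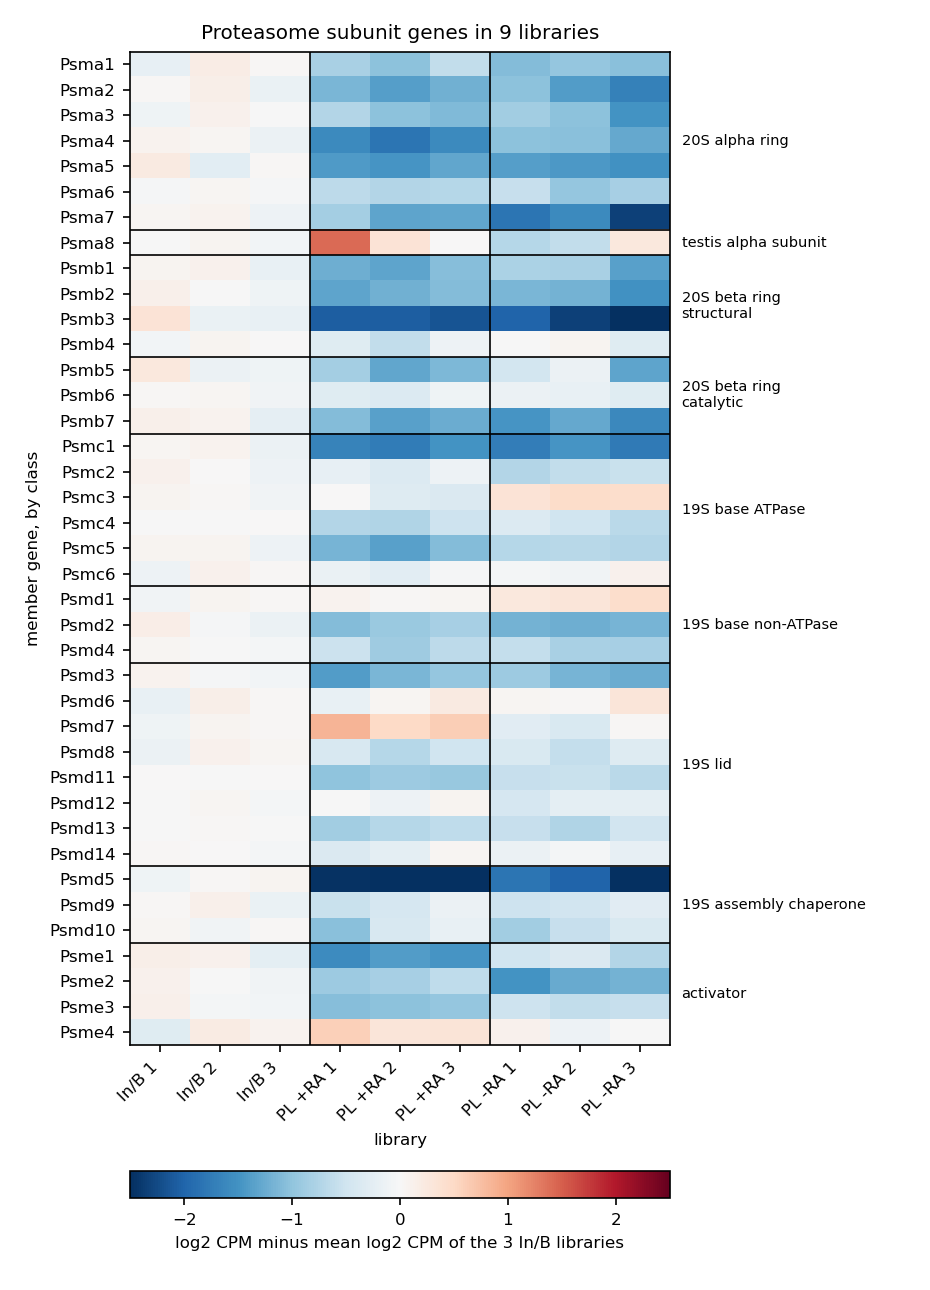
Level of the 39 tested genes (rows, by class) in the 9 libraries (columns; PL +RA, RA-sufficient; PL -RA, RA-deficient), as log2 CPM minus the mean log2 CPM of the 3 In/B libraries. Blue is lower and red higher, and colors saturate at the ends of the bar. The 7 alpha ring genes are blue in all 6 PL libraries, whereas Psmb6, Psmc6 and Psmd12 stay pale.

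All 7 constitutive alpha ring genes fell in both PL groups, against 31.2% of all genes with RA and 18.3% without. Summed, they measured 846, 888 and 807 CPM in In/B, 423, 364 and 403 in RA-sufficient PL and 414, 383 and 339 in RA-deficient PL. The log2 fold change against In/B ran from -1.61 (Psma4) to -0.65 (Psma6) in RA-sufficient PL, with a median of -1.08, and from -1.71 (Psma7) to -0.62 (Psma6) in RA-deficient PL, with a median of -0.94. Psma4 measured 203, 197 and 173 CPM in In/B, 63.2, 53.7 and 63.5 in RA-sufficient PL and 93.8, 92.9 and 78.2 in RA-deficient PL. The 3 groups did not overlap, with the lowest values in RA-sufficient PL. Psma4 fell by 1.61 ± 0.13 (SE; edgeR adjusted p = 2.26e-05) on the log2 scale in RA-sufficient PL and by 0.94 ± 0.13 (edgeR adjusted p = 0.00128) in RA-deficient PL. Of the 75-base windows of its longest coding transcript 16.7% also occur in other annotated genes. For Psma5 this share was 40.6% and for Psma3 21.3%, so that the counts of these genes depend on how reads with several positions were assigned.

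Psma7 occupies the place in the alpha ring that Psma8 takes in the spermatoproteasome. Psma7 (chromosome 2, 179771078 to 179777138 in mm9) measured 118, 122 and 105 CPM in In/B, 63.8, 46.1 and 46.4 in RA-sufficient PL and 32.4, 38 and 22.7 in RA-deficient PL. Each group lay below the one before without overlap. Psma7 fell by 1.08 ± 0.16 (edgeR adjusted p = 0.000461) in RA-sufficient PL and by 1.71 ± 0.21 (edgeR adjusted p = 0.000667) in RA-deficient PL, both against In/B. Between the PL groups the difference of -0.76 ± 0.26 did not pass (edgeR adjusted p = 0.0773; 95% interval -1.37 to -0.14). Without RA-deficient replicate 3 the values were -1.53 against In/B and -0.56 between the PL groups.

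Psma8 on chromosome 18 measured 20.9, 21.9 and 20.1 CPM in In/B, 56.2, 26.6 and 21 in RA-sufficient PL and 12.8, 13.7 and 25.1 in RA-deficient PL. The high values were those of RA-sufficient replicate 1 and RA-deficient replicate 3, the libraries with the highest summed pachytene markers in their groups, and the groups overlapped. None of its differences passed. Against In/B the log2 fold change was 0.78 ± 0.34 in RA-sufficient PL (edgeR adjusted p = 0.0745) and -0.12 ± 0.30 in RA-deficient PL (edgeR adjusted p = 0.795), and between the PL groups it was -1.03 ± 0.46 (edgeR adjusted p = 0.149). Single libraries moved these values past the threshold. Without RA-sufficient replicate 3 the rise was 1.04 (edgeR adjusted p = 0.022) and without replicate 1 it was 0.23 (edgeR adjusted p = 0.307). The difference between the PL groups was -1.37 (edgeR adjusted p = 0.0357) without RA-deficient replicate 3 and -0.45 (edgeR adjusted p = 0.469) without RA-sufficient replicate 1.

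The ratio of Psma8 to Psma7 counts was 0.177, 0.18 and 0.192 in In/B, 0.881, 0.576 and 0.451 in RA-sufficient PL and 0.396, 0.362 and 1.1 in RA-deficient PL. It was higher in all 6 PL libraries than in the In/B libraries. In RA-deficient replicates 1 and 2 Psma8 itself lay below all In/B libraries (12.8 and 13.7 against 20.1 to 21.9 CPM), as did Psma7. Expressed as counts per kilobase of annotated exon, Psma8 made up 24.8 ± 0.8% (SD, n = 3) of the pair in In/B, 52.3 ± 8.36% in RA-sufficient PL and 49.1 ± 15% in RA-deficient PL. The exact two-sided permutation p was 0.1 for each PL group against In/B, the smallest that 3 against 3 libraries can give, and 0.7 between the PL groups. Leaving out RA-deficient replicate 3 lowered the excess of its group over In/B from 24.4 to 15.7 percentage points. With the length of the longest coding transcript in place of all exons the shares were 9.01, 25.2 and 23.7%, so that the order of Psma7 and Psma8 in PL depends on the transcript assumed.

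**Figure D2:**
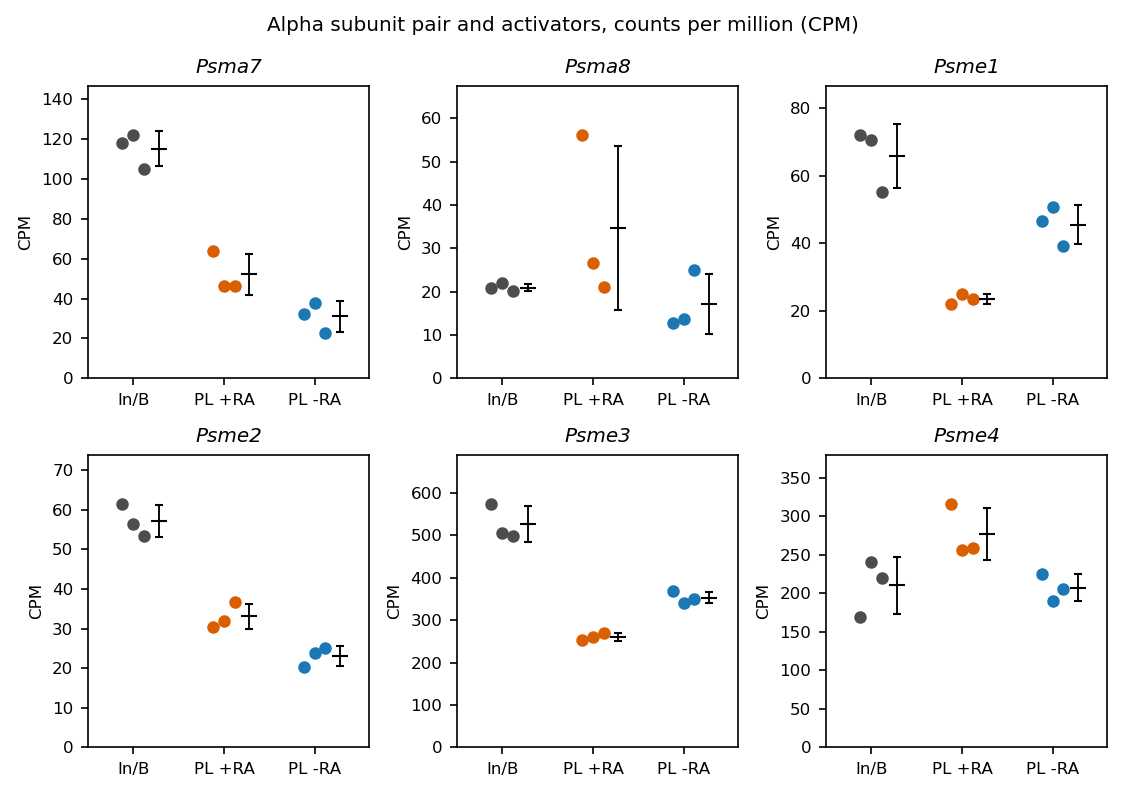
CPM (linear axes from 0) of the alpha subunit pair and the 4 activator genes in In/B, RA-sufficient PL (PL +RA) and RA-deficient PL (PL -RA) libraries. Points are libraries in order of replicate number, and bars are the mean ± SD of 3. Psma7 steps down over the groups, Psma8 has a single high library in each PL group, and Psme1 is lowest in RA-sufficient PL.

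The beta ring was divided. Among the structural subunits, 3 of 4 fell in each PL group, against 31.2% of all genes with RA and 18.3% without. Their medians were -1.15 and -0.95. Psmb3 had the lowest values, with 93.5, 65.2 and 64.9 CPM in In/B, 17.5, 17.7 and 16.4 in RA-sufficient PL and 18.3, 14.6 and 12.9 in RA-deficient PL. Both PL groups lay below In/B and overlapped each other. Psmb3 fell by 2.06 ± 0.19 (edgeR adjusted p = 4.76e-05) with RA and by 2.12 ± 0.24 (edgeR adjusted p = 0.000439) without, and 33.2% of its 75-base windows occur in 3 other annotated genes. Psmb4 was the member that did not pass, with log2 fold changes of -0.28 and 0.09.

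The 3 genes for the catalytic sites differed in their calls against In/B. Psmb7, the trypsin-like subunit, measured 227, 219 and 178 CPM in In/B, 97.4, 80.9 and 87.8 in RA-sufficient PL and 74.9, 84.7 and 67.5 in RA-deficient PL. It was lower in all PL libraries, and fell by 1.17 ± 0.14 (edgeR adjusted p = 0.000125) with RA and fell by 1.29 ± 0.15 (edgeR adjusted p = 0.000525) without. Psmb6, the caspase-like subunit, measured 164, 165 and 151 CPM in In/B, 130, 127 and 149 in RA-sufficient PL and 144, 141 and 129 in RA-deficient PL. The PL values lay just below those of In/B, and the log2 fold changes of -0.18 (95% interval -0.44 to 0.07) and -0.04 (-0.31 to 0.22) did not pass. Psmb5, the chymotrypsin-like subunit, was low in every group, with 15.5, 11.6 and 11.9 CPM in In/B, 7.14, 5.21 and 5.91 in RA-sufficient PL and 9.32, 11.6 and 5.16 in RA-deficient PL. It fell by 1.05 ± 0.26 (edgeR adjusted p = 0.00709) in RA-sufficient PL, and its difference of -0.42 ± 0.37 in RA-deficient PL did not pass (edgeR adjusted p = 0.427) and was -0.15 without replicate 3 of that group. Between the PL groups the Psmb5 difference of 0.51 did not pass. Per kilobase of exon Psmb5 averaged 14.1 CPM in In/B against 85.5 for Psmb6 and 171 for Psmb7.

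**Figure D3:**
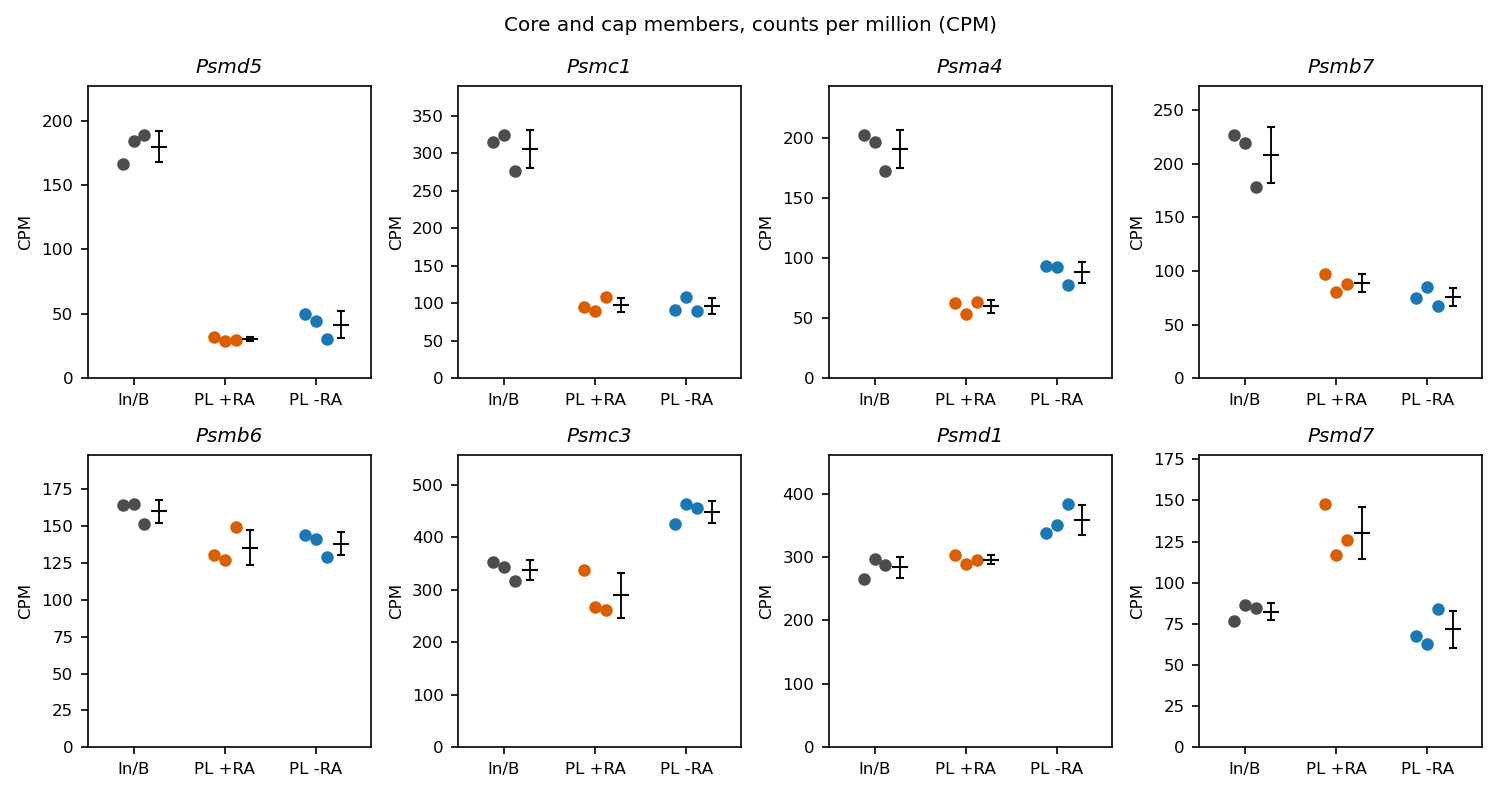
CPM (linear axes from 0) of 8 core and cap genes in In/B, RA-sufficient PL (PL +RA) and RA-deficient PL (PL -RA) libraries. Points are libraries in order of replicate number, and bars are the mean ± SD of 3. Psmd5, Psmc1, Psma4 and Psmb7 drop in both PL groups, Psmc3 and Psmd1 are highest in RA-deficient PL, and Psmd7 is highest in RA-sufficient PL.

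The 19S cap held genes that fell and genes that rose. Over the 17 base and lid genes 9 fell and 1 rose in RA-sufficient PL (median -0.48), and 8 fell and 2 rose in RA-deficient PL (median -0.33). For the 14 constitutive core genes the corresponding counts were 12 fallen (median -1.11) and 11 fallen (median -0.94), with 0 risen. Over all genes 31.2% fell and 33.8% rose with RA, and 18.3% fell and 18.4% rose without. The difference between core and cap was not tested.

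Among the 6 ATPases of the base, Psmc1 fell furthest. Psmc1 (chromosome 12, 101348396 to 101361574) measured 315, 325 and 277 CPM in In/B, 95.7, 90.3 and 108 in RA-sufficient PL and 91.7, 109 and 90 in RA-deficient PL. The PL groups overlapped, and both lay far below In/B. Psmc1 fell by 1.58 ± 0.12 (edgeR adjusted p = 1.93e-05) on the log2 scale with RA and fell by 1.49 ± 0.13 (edgeR adjusted p = 0.000147) without. Psmc3, another ATPase whose tail docks into the alpha ring, went the other way without RA. It measured 353, 343 and 316 CPM in In/B, 338, 268 and 262 in RA-sufficient PL and 425, 464 and 455 in RA-deficient PL. All RA-deficient PL libraries lay above the other 6. Psmc3 rose by 0.58 ± 0.10 (edgeR adjusted p = 0.00328) in RA-deficient PL, whereas its difference of -0.17 ± 0.13 in RA-sufficient PL did not pass (edgeR adjusted p = 0.281). Its annotated exons overlap those of Slc39a13 on the opposite strand over 215 bases. With scaling by library totals alone its rise was 0.26 and no longer passed (edgeR adjusted p = 0.0764).

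Psmc2, also of this ring, measured 152, 142 and 130 CPM in In/B, 123, 111 and 130 in RA-sufficient PL and 84.5, 92.2 and 95.4 in RA-deficient PL, where all libraries lay below the others. It fell by 0.48 ± 0.13 (edgeR adjusted p = 0.0212) in RA-deficient PL, a call that was lost without In/B replicate 2, In/B replicate 3 or RA-deficient replicate 1 (edgeR adjusted p up to 0.0707). Its difference of -0.17 in RA-sufficient PL did not pass (edgeR adjusted p = 0.24). Of the remaining ATPases, Psmc5 fell in both PL groups, by 1.15 and by 0.55, and Psmc4 fell in RA-sufficient PL by 0.61, with -0.33 in RA-deficient PL. Psmc6 had values of -0.09 and 0.16, neither of which passed.

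The large scaffold proteins of the base, Psmd1 and Psmd2, moved in opposite directions without RA. Psmd2 measured 695, 613 and 566 CPM in In/B, 292, 325 and 350 in RA-sufficient PL and 273, 268 and 277 in RA-deficient PL. Every PL library was lower, and Psmd2 fell by 0.90 ± 0.12 (edgeR adjusted p = 0.000308) and by 1.03 ± 0.11 (edgeR adjusted p = 0.000389). Psmd1 measured 266, 297 and 288 CPM in In/B, 303, 289 and 295 in RA-sufficient PL and 338, 351 and 384 in RA-deficient PL. Only the RA-deficient PL libraries were separate from In/B, with a rise of 0.50 ± 0.10 (edgeR adjusted p = 0.00649), against 0.12 ± 0.10 in RA-sufficient PL (edgeR adjusted p = 0.322). Between the PL groups the Psmd1 difference of 0.27 did not pass. With scaling by library totals alone the rise against In/B was 0.19 (edgeR adjusted p = 0.171). Annotated exons of Psmd1 overlap Armc9 on the same strand over 405 bases. Psmd4, a ubiquitin receptor of the cap, fell by 0.64 in RA-sufficient and by 0.58 in RA-deficient PL.

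In the lid 4 of 8 genes fell and 1 rose in RA-sufficient PL, and 3 fell in RA-deficient PL. Of all genes 31.2% fell and 33.8% rose in RA-sufficient PL, and 18.3% fell in RA-deficient PL. Psmd3 fell furthest, by 1.11 and by 0.93. Psmd14, the deubiquitinase of the lid, had log2 fold changes of -0.12 (95% interval -0.43 to 0.19) and 0.04 (-0.24 to 0.32), which did not pass. Psmd7, which forms a dimer with Psmd14, was the gene that rose. Psmd7 (chromosome 8, 110104281 to 110112382) measured 76.9, 86.2 and 84.5 CPM in In/B, 148, 117 and 126 in RA-sufficient PL and 67.8, 63 and 84.3 in RA-deficient PL. The RA-sufficient PL libraries lay above all others, and the other groups overlapped. Psmd7 rose by 0.71 ± 0.13 (edgeR adjusted p = 0.00133) in RA-sufficient PL, against -0.04 ± 0.16 in RA-deficient PL (edgeR adjusted p = 0.885). The ratio of Psmd7 to Psmd14 counts was 0.701, 0.799 and 0.81 in In/B, 1.78, 1.28 and 1.13 in RA-sufficient PL and 0.7, 0.605 and 0.901 in RA-deficient PL.

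Psmd5, Psmd9 and Psmd10 are chaperones that bring the ATPase ring together and leave before the cap is complete. Psmd5 (chromosome 2, 34707608 to 34726459) measured 166, 184 and 189 CPM in In/B, 32.5, 29.4 and 30.1 in RA-sufficient PL and 50.3, 44.6 and 30.3 in RA-deficient PL. All PL libraries lay far below In/B. Psmd5 fell by 2.49 ± 0.12 (edgeR adjusted p = 1.05e-05) on the log2 scale with RA, the largest change of the 39 members in the 3 comparisons, and fell by 1.94 ± 0.20 (edgeR adjusted p = 0.000313) without. Without RA-deficient replicate 3 it fell by 1.75. Psmd5 is known to hold Psmc1, Psmc2 and Psmd2 in an assembly intermediate, whose values are given above. Psmd9, the chaperone of Psmc3 and Psmc6, had log2 fold changes of -0.32 and -0.26, and Psmd10, the chaperone of Psmc4 and Psmc5, had -0.44 and -0.43. None of these passed.

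**Figure D4:**
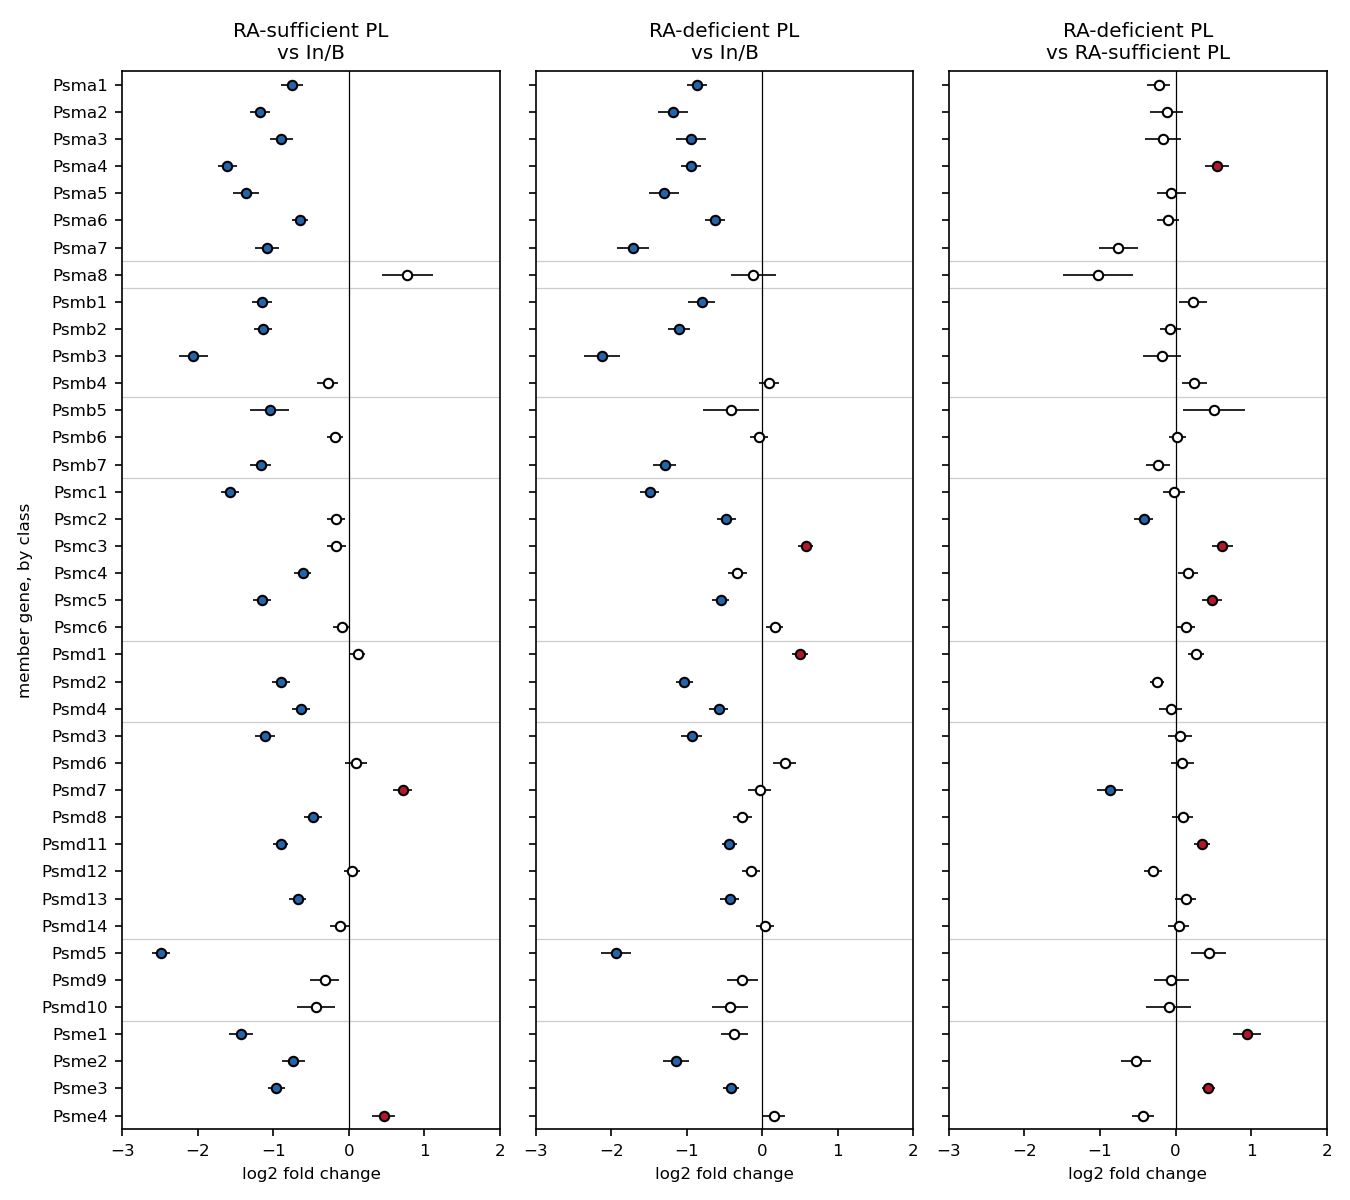
Log2 fold change (horizontal axes, points with SE bars from edgeR) of the 39 tested genes (vertical axis, by class) in the 3 comparisons. Filled points passed an adjusted p of 0.05 (blue lower, red higher) and open points did not. Most filled points are blue in the panels against In/B, whereas the panel between the PL groups has 6 red and 2 blue.

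The promoters of 33 of the 40 genes were found in RefSeq promoters of the build GRCm38.p6, which run from 250 bases before to 50 bases after the start. The core of the antioxidant response element, TGACNNNGC, through which Nfe2l1 is known to direct transcription of proteasome genes, was searched on both strands. It occurred in 6 of 33 members (18.2%; Psmb5, Psmb6, Psmc6, Psmd12, Psmd9 and Psme4) and in 14% of 27025 genes. The CCAAT box occurred in 13 members (39.4%) and in 41.1% of all genes, and the GC box GGGCGG in 21 members (63.6%) and in 38.2% of all genes. Each is a match of letters and not a binding site. The 250 bases before the start are shown for Psmd5 and Psmb3, which had the lowest log2 fold changes, for Psmc6, which passed in neither comparison, and for Psme4, which rose in RA-sufficient PL. Capitals mark matches to any of the 3 motifs on either strand, and no base belonged to more than 1 of them. Psmd5 lies at chr2:34870963-34871212 (minus strand), Psmb3 at chr11:97703184-97703433 (plus), Psmc6 at chr14:45329574-45329823 (plus) and Psme4 at chr11:30771525-30771774 (plus).
Psmd5: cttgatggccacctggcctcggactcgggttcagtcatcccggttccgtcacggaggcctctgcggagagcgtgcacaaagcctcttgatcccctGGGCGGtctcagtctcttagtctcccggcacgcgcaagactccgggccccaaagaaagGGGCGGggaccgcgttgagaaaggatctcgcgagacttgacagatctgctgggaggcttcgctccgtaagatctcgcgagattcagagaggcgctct
Psmb3: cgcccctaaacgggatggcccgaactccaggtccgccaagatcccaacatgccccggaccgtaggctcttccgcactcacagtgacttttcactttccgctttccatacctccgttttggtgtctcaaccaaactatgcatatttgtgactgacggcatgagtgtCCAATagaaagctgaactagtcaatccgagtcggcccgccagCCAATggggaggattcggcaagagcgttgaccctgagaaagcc
Psmc6: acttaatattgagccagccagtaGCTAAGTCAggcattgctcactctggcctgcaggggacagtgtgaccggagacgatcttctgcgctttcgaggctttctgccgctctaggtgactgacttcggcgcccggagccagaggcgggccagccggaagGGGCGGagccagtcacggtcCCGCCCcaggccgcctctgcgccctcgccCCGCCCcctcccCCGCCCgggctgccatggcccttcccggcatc
Psme4: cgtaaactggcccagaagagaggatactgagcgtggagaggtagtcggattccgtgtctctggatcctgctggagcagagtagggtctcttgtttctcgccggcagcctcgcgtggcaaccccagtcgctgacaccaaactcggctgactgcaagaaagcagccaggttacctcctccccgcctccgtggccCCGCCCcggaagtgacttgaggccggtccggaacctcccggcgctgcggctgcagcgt
In Psmd5 the capitals are GC boxes that begin 155 and 97 bases before the start, and in Psmb3 CCAAT boxes at 85 and 43 bases. Psmc6 has the element TGACNNNGC on the reverse strand 227 bases before its start and GC boxes at 93, 73, 44 and 32 bases. Psme4 has a GC box at 58 bases, and its match to TGACNNNGC lies outside the bases shown. Psmd5 and Psmb3, the members that fell furthest, thus had none of the 3 motifs in common in this stretch.

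The 4 activator genes differed among themselves, and 2 of them, Psme1 and Psme3, were called different between the PL groups. Both were higher without RA, as were 11% of all genes. The differences of Psme2 (-0.52) and Psme4 (-0.43) between RA-deficient and RA-sufficient PL did not pass. Psme1 and Psme2 encode the subunits of the activator PA28, which opens the core without ATP. Psme1 measured 72.2, 70.7 and 55.1 CPM in In/B, 22.1, 24.9 and 23.6 in RA-sufficient PL and 46.5, 50.7 and 39.3 in RA-deficient PL. The 3 groups did not overlap. Psme1 fell by 1.43 ± 0.16 (edgeR adjusted p = 0.000115) in RA-sufficient PL, and its difference of -0.37 ± 0.18 in RA-deficient PL did not pass (edgeR adjusted p = 0.148). Psme2 measured 61.5, 56.5 and 53.4 CPM in In/B, 30.5, 32 and 36.7 in RA-sufficient PL and 20.2, 23.9 and 25.1 in RA-deficient PL. Here the lowest values were those of RA-deficient PL. Psme2 fell by 0.74 ± 0.15 (edgeR adjusted p = 0.00239) with RA and by 1.14 ± 0.18 (edgeR adjusted p = 0.00189) without. The ratio of Psme1 to Psme2 counts was 1.17, 1.25 and 1.03 in In/B, 0.725, 0.778 and 0.643 in RA-sufficient PL and 2.3, 2.12 and 1.57 in RA-deficient PL, without overlap between groups. Of the 75-base windows of Psme2 51.7% occur in the pseudogene Psme2b-ps, and the counts of Psme2 are uncertain to that extent.

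Psme3 encodes a nuclear activator of the same family. It measured 574, 505 and 499 CPM in In/B, 252, 259 and 270 in RA-sufficient PL and 368, 341 and 350 in RA-deficient PL. Again the 3 groups did not overlap, with the lowest values in RA-sufficient PL. Psme3 fell by 0.96 ± 0.11 (edgeR adjusted p = 0.000116) with RA and by 0.41 ± 0.11 (edgeR adjusted p = 0.019) without. The latter call was lost when In/B replicate 3 or RA-deficient replicate 2 was left out (edgeR adjusted p up to 0.0605).

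Psme4, the activator of the spermatoproteasome (chromosome 11, 30671726 to 30780361), measured 169, 241 and 220 CPM in In/B, 316, 256 and 259 in RA-sufficient PL and 225, 190 and 206 in RA-deficient PL. The RA-sufficient PL libraries lay above the In/B libraries, 2 of them by a small margin. Psme4 rose by 0.46 ± 0.15 (edgeR adjusted p = 0.0244) in RA-sufficient PL, a call that was lost when In/B replicate 1, In/B replicate 3 or RA-sufficient replicate 1 was left out (edgeR adjusted p up to 0.0618). In RA-deficient PL its difference was 0.15 ± 0.15 (edgeR adjusted p = 0.467). Per kilobase of exon Psme4 made up 9.49 ± 2.05% (SD, n = 3) of the 4 activators in In/B, 21.9 ± 2.72% in RA-sufficient PL and 13.9 ± 0.845% in RA-deficient PL. The exact two-sided permutation p was 0.1 for each of the 3 comparisons, the smallest possible, and the groups did not overlap.

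To ask what continued inhibition of RA synthesis changed in PL spermatocytes, the PL groups were compared directly. Between RA-deficient and RA-sufficient PL, 6 members were higher and 2 lower in RA-deficient PL, and 31 did not pass. Over all 15352 genes tested 11% were higher and 12.6% lower, so that the higher members were near the background and the lower ones below it. None of the 8 changed more than 2-fold, against 4.47% of all genes higher and 11% lower by that measure. The median log2 fold change was -0.02 over the members and -0.09 over all genes, and the median size of change regardless of sign was 0.23 and 0.62. With scaling by library totals alone, which moved the median of all genes by -0.18, the split was 1 higher and 7 lower. Without RA-deficient replicate 3 it was 8 and 3, with each of the 8 calls kept and Psma8, Psmb1 and Psmd5 passing as well. It was 3 and 1 without RA-sufficient replicate 1, 0 and 1 without RA-sufficient replicate 2 or 3, 2 and 1 without RA-deficient replicate 1 and 1 and 1 without RA-deficient replicate 2.

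The members higher in RA-deficient PL came from the core, the cap and the activators. Psme1 was higher by 0.95 ± 0.19 (edgeR adjusted p = 0.013), the largest of these differences, followed by Psmc3 at 0.62 ± 0.14 (edgeR adjusted p = 0.0223) and Psma4 at 0.55 ± 0.16 (edgeR adjusted p = 0.0411). Psmc5, an ATPase, measured 81.5, 71.4 and 85.9 CPM with RA and 112, 113 and 110 without, a difference of 0.48 ± 0.13 (edgeR adjusted p = 0.0341). Psme3 and the lid subunit Psmd11 were higher by 0.44 and 0.35. The lower members were Psmd7, by -0.87 ± 0.17 (edgeR adjusted p = 0.0133), and Psmc2, by -0.42 ± 0.13 (edgeR adjusted p = 0.0488). In all 8 the libraries of the PL groups did not overlap, as was the case for 7 members in each direction (20.1% of all genes higher and 27.3% lower). The Sertoli markers, which ran from 2810 to 3640 CPM with RA and 286 to 503 without, separated the same libraries. The sums of peritubular and stromal markers (893 to 1230 and 143 to 174 CPM) and of spermatogonial markers (1550 to 1980 and 3220 to 5430) did so too. The stromal sum was mostly Sparc, and of the 7 stromal markers 1 was called higher and 1 lower without RA. All 6 spermatogonial markers were called higher without RA. The RA-deficient means of Psma4, Psmc5, Psmd11, Psme1 and Psme3 lay between those of In/B and RA-sufficient PL. Those of Psmc3, Psmd7 and Psmc2 did not. The part of the markers in these differences was not tested.

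Other genes of the pathway were taken from a list of 50, of which 48 were in the table. Against In/B 15 of 48 rose and 15 fell in RA-sufficient PL, close to the 33.8% and 31.2% of all genes. In RA-deficient PL 13 of 45 tested rose and 5 fell, against 18.4% and 18.3% of all genes. With scaling by library totals alone the latter split was 7 risen and 13 fallen (12.5% and 27.5% of all genes), and without RA-deficient replicate 3 it was 14 and 7 (20.7% and 23.9%). Pomp, the maturation factor that closes the core, had log2 fold changes of -1.33 and -1.23 in these comparisons and fell in both. The deubiquitinases docked on the cap, Usp14 and Uchl5, fell too, with values of -1.34 and -1.06 in RA-sufficient PL and -0.73 and -0.68 in RA-deficient PL. The last of these, for Uchl5, did not pass without In/B replicate 2 or 3 (edgeR adjusted p up to 0.0686). Of the subunits that the symbol rule leaves out, Adrm1, a ubiquitin receptor, fell by 0.67 in RA-sufficient PL and had 0.20 in RA-deficient PL, and Shfm1 (Sem1) had -0.03 and rose by 0.74. This rise did not pass with library totals alone (0.42, edgeR adjusted p = 0.119), nor without In/B replicate 3 or RA-deficient replicate 2.

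Upstream of the proteasome, the enzymes that activate ubiquitin moved in opposite directions. Uba1, the general enzyme, measured 602, 596 and 594 CPM in In/B, 155, 168 and 162 in RA-sufficient PL and 292, 317 and 169 in RA-deficient PL. Uba6, which serves a smaller set of conjugating enzymes, measured 235, 251 and 246 CPM in In/B, 403, 516 and 518 in RA-sufficient PL and 591, 570 and 701 in RA-deficient PL. No PL library overlapped In/B for either gene. Uba1 fell by 1.83 ± 0.10 (edgeR adjusted p = 1.08e-05) and by 1.04 ± 0.22 (edgeR adjusted p = 0.00771), and Uba6 rose by 1.03 ± 0.12 (edgeR adjusted p = 0.000151) and 1.51 ± 0.11 (edgeR adjusted p = 9.26e-05). Without RA-deficient replicate 3, whose Uba1 level was the lowest of its group, Uba1 fell by 0.80 in RA-deficient PL.

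Among ubiquitin receptors and shuttles 5 of 8 rose and 2 fell in RA-sufficient PL (33.8% and 31.2% of all genes), and 4 of 6 tested rose in RA-deficient PL (18.4% of all genes). Ubqln4, a shuttle that carries tagged proteins to the cap, fell by 1.34 in RA-sufficient PL. Ddi1 was at 0 CPM in all In/B libraries and at 0.589, 1.82 and 1.81 in RA-sufficient PL, and was called higher there. Of the regulators of proteasome gene transcription, Nfe2l1 measured 305, 287 and 277 CPM in In/B, 284, 265 and 260 in RA-sufficient PL and 253, 263 and 237 in RA-deficient PL. Ngly1, the enzyme that removes glycans from Nfe2l1, rose by 1.59 and 1.41, and Nfe2l2 fell by 1.08 in RA-sufficient PL. Ngly1 was at 48.5, 51.2 and 96.2 CPM in RA-deficient PL, and without replicate 3 its rise there was 1.03. Its difference between the PL groups was -0.30 (edgeR adjusted p = 0.478), and -0.68 (edgeR adjusted p = 0.0164) without that library. Of the immunoproteasome subunits Psmb8 and Psmb9 were low in every group. Psmb10 lay above both in In/B and RA-deficient PL, and its range overlapped that of Psmb9 in RA-sufficient PL. Psmb8 measured 0.17 to 0.227 CPM in In/B, 3.33 to 4.06 in RA-sufficient PL and had 0 counts in RA-deficient PL, and it was called higher in RA-sufficient PL against both groups. Psmb9 rose by 1.80 in RA-sufficient PL, from 0.622 to 2.07 CPM in In/B to 2.36 to 5.96, a call lost without In/B replicate 2, In/B replicate 3 or RA-sufficient replicate 3 (edgeR adjusted p up to 0.122). Psmb10 measured 21.1, 15.5 and 13.5 CPM in In/B, 4.34, 5.46 and 7.32 in RA-sufficient PL and 15.8, 9.39 and 20 in RA-deficient PL. It fell by 1.49 in RA-sufficient PL and was higher by 1.40 in RA-deficient than in RA-sufficient PL.

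Between the PL groups 9 of 48 pathway genes were higher and 2 lower in RA-deficient PL, against 11% and 12.6% of all genes. With scaling by library totals alone the split was 2 higher and 6 lower (6.18% and 16% of all genes), and without RA-deficient replicate 3 it was 13 and 9 (17.7% and 24.2%). Without any other single library 0 to 3 were higher and 1 or 2 lower. The higher ones included Adrm1 (0.75) and Shfm1 (0.65). The lower ones were Vcp, the p97 unfoldase, which measured 224, 319 and 331 CPM with RA and 124, 120 and 198 without (-0.99 ± 0.23, edgeR adjusted p = 0.021), and Psmb8. Without RA-deficient replicate 3 the value of Vcp was -1.25. Single libraries ended the calls of Adrm1 (any but RA-deficient replicate 3), Shfm1 (RA-sufficient replicate 1 or 2, RA-deficient replicate 2), Vcp (RA-sufficient replicate 2 or 3, RA-deficient replicate 1 or 2) and Psmb10 (any of RA-sufficient PL, RA-deficient replicate 1).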

How the data were processed

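The deposited table holds raw counts of reads per gene, which the authors made from stranded mRNA libraries by trimming single-end reads with cutadapt 1.9, aligning them to mm9 with STAR 2.5.2b and counting with featureCounts. The annotation and the strand setting of the counting are not given in the sources used here, so that reads of genes whose exons overlap on opposite strands may have been mixed. Each of the 9 columns was matched by its name to a group and replicate.

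Each pair of groups (3 libraries each) was compared over all genes with edgeR 4.0.16 in R 4.3.3, using TMM scaling, filterByExpr, the quasi-likelihood test and Benjamini-Hochberg adjustment, with a threshold of 0.05. SE and 95% intervals come from that fit. CPM, and the overlaps read from them, were scaled by TMM over all 9 libraries, and fold changes by TMM over the libraries of each pair. Shares of 2 or more genes were computed from counts per kilobase of annotated exon and compared with exact permutation tests. Total counts ran from 12612959 to 27042274, at which 3 counts are worth 0.111 to 0.238 CPM. The scripts were tested on simulated data.

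The members and the lists of related genes and markers were chosen with earlier results of these data known. Members described one by one are Psma7, Psma8, Psmb5 to Psmb7, Psme1 to Psme4 and, for each comparison and direction, the 3 called members with the lowest p; the others are given by class with the extremes, and Psmb1, Psmb3, Psma3, Psma5, Psmc4, Psmc5, Psmc6, Psmd4, Psmd8, Psmd11 and Psmd14 were added after their values were seen, as were Nfe2l1 and the promoters shown. Related genes are named where they were called with more than a 2-fold change or are extremes of their class, and Shfm1 was named besides. Some genes of that list are not reported here by themselves, and the counts include them. Older symbols were used where the table has them. Coordinates and transcript lengths are those of GENCODE M1 (mm9), and promoters those of RefSeq (GRCm38.p6). Alternatives were other scaling (RLE, library totals alone), other filters (none, a mean count of 50 or more), DESeq2 1.42.0, a replicate block, a joint fit of the 9 libraries, a fold threshold, other transcript lengths and each library left out. Plots were made in Python 3.11.15 (matplotlib 3.10.9).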

Additional observations from a re-analysis of the deposited data

Results flagged for a closer look

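For 8 members the change from In/B differed between the PL groups when these were tested directly against each other with edgeR, which cancels the shared In/B libraries. The log2 difference was 0.949 for Psme1 (edgeR adjusted p = 0.013), 0.621 for Psmc3 (0.0223), 0.548 for Psma4 (0.0411), 0.484 for Psmc5 (0.0341), 0.435 for Psme3 (0.0157) and 0.348 for Psmd11 (0.0451), each higher without RA in 3 of 3 libraries. It was -0.869 for Psmd7 (edgeR adjusted p = 0.0133) and -0.423 for Psmc2 (0.0488), each lower without RA in 3 of 3 libraries. Psme1 changed from In/B by -1.43 with RA and -0.37 without, and Psmd7 by 0.71 and -0.04. Among these 8, Psmd7 was called with each of the 6 libraries left out in turn, whereas Psme1 lost its call in 2 such fits, Psmc3 in 3, Psme3 in 4 and Psma4, Psmc2, Psmc5 and Psmd11 in 5. RA-deficient replicate 3 was the library whose omission kept all 8.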

How the results depend on the processing

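The falls of the members in RA-sufficient PL hardly depended on the processing, with 25 or 26 called lower under every scaling, filter, tool or left-out library. With a change of more than 2-fold as well, 0 members were higher and 14 lower in RA-sufficient PL, 0 and 10 in RA-deficient PL against In/B, and 0 and 0 between the PL groups. With library totals in place of TMM, RA-deficient PL against In/B gave 0 higher and a median of -0.752, with Psme4 at -0.163, Psmb4 at -0.228, Psmc6 at -0.153, Psmd14 at -0.278 and the related gene Adrm1 at -0.12. Between the PL groups that scaling gave 1 higher, 7 lower and a median of -0.203, with Psmb6 at -0.157. Replicate numbers did not pair the libraries (correlations of deviations from the group means from -0.294 to 0.162). With the replicate number as a block, 1 member was higher in RA-sufficient PL than in In/B (the call of Psme4 was lost, at 0.464 with an edgeR adjusted p of 0.0651), the median in RA-deficient PL was -0.474, and between the PL groups 3 were higher and 1 lower. A joint fit of all 9 libraries gave a median of -0.565 in RA-deficient PL, with Psmb4 at -0.0428 and Psmd14 at -0.0912, and 0.0105 for Psmc1 between the PL groups. The number lower between the PL groups was 1 with RLE scaling, 1 without a filter and 4 with DESeq2. With a mean of at least 50 counts Shfm1 was at 0.0246 in RA-sufficient PL. For 29 members and 15 related genes there were 710 refits of the values given, with another scaling, filter, tool or model. Of these 660 kept direction and call, 25 lost a call, 15 gained one and 10 turned sign. Fits that left out a library are not among them.

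Leaving out each library in turn, the number higher in RA-sufficient PL against In/B ran from 1 to 3, and the median of RA-deficient PL against In/B from -0.519 to -0.429. Shfm1 ran from -0.209 to 0.0663 in the former. In the latter comparison Psma8 ran from -0.486 to 0.02, Psmb6 from -0.1 to 0.00658 Psmd7 from -0.164 to 0.0179, Psmb4 from -0.0123 to 0.19 and Psmd14 from -0.0348 to 0.0751. Between the PL groups 0 to 8 were higher and 1 to 3 lower, with medians from -0.049 to 0.066. There Psmb6 ran from -0.0291 to 0.0824, Psmc1 from -0.0994 to 0.0403 and the difference in the Psma8 share from -11.8 to 1.7 percentage points. These counts dropped without any single library other than RA-deficient replicate 3, and besides the smaller number of libraries the cause was not tested. The length of the longest coding transcript was chosen as an alternative after seeing the data, as were the refits of genes described beyond the rule and the splits of the related genes. Depth did not limit the 39 members tested, each with at least 86 counts in every library.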
